A study of Mus musculus with 371 samples.

Results

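A set of 10 genes of the AP-1 family and the immediate early response, Fos, Fosb, Fosl2, Jun, Junb, Jund, Atf3, Ier2, Dusp1 and Crem, were followed in single T cells from B16F10 melanoma, a transplantable tumour of C57BL/6 mice. The members are the entries of these genes in the deposited expression table, and all 10 were found among its 23362 genes. The cells form 4 groups: CD4 cells labelled KO for Il27ra, the IL-27 receptor alpha chain, WT CD4 cells, KO CD8 cells and WT CD8 cells. All 4 groups came from tumours of C57BL/6 mice, and no other allele, agent or age is given. Each group carries 1 pool name in its titles and no replicate, so pool, genotype and processing cannot be told apart in any comparison, and the number of mice behind a pool is not stated. The number 3 follows the genotype in the titles of all 4 groups, and a closing label reads p2 in both CD4 groups and p1 in both CD8 groups, so whatever that label marks cannot be told apart from the sort. The shared protocol text speaks of CD8 T cells for every sample, while the titles of 2 groups say CD4.

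AP-1 is a pair of basic leucine zipper proteins, one from the Jun family and one from the Fos family or its relatives, that binds DNA and, in T cells, acts with NFAT after antigen recognition. Immediate early genes are transcribed within minutes of a signal without new protein synthesis, and receptor signalling, cytokines, heat and enzymatic tissue dissociation are all known to induce them. Dusp1 encodes a phosphatase that switches MAP kinases off again, and Crem encodes cAMP-responsive repressors and activators that bind the same kind of DNA element as CREB.

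RNA of each cell was read by Smart-seq2, which makes full-length cDNA from 1 cell, and the authors deposited TMM-normalized FPKM (fragments per kilobase of transcript, scaled to library size). A cell was kept when 1000 or more of its genes reached 1 FPKM, which left 89 of 93 KO CD4, 85 of 94 WT CD4, 86 of 90 KO CD8 and 90 of 94 WT CD8 cells. The median cell had 1661 to 2148 such genes per group. The most common low value of a cell, taken as 1 fragment, put the libraries near 483000 to 518000 fragments. At that depth 1 fragment was worth about 0.296 FPKM for the long Fosl2 transcript and 1.27 FPKM for the short Ier2 transcript. Lower non-zero values of both genes occurred, so this depth is a rough estimate. A gene is called detected in a cell at 1 FPKM or more, so detection includes values from about 1 fragment. A level below is log2(FPKM + 1) averaged over the cells of a group, and a difference is the gap between a pair of such levels. With 1 pool per group there is no test between groups: intervals beside shares are 95% Clopper-Pearson limits (exact), and they hold counting error alone.

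The sorts were checked on their lineage transcripts. Cd4 was detected in 87.6% of KO CD4 and 87.1% of WT CD4 cells, and in 0 of 86 KO CD8 and 0 of 90 WT CD8 cells, which allows shares of up to 3.49% and 3.33% there, taking 3 counts as the limit that a count of 0 allows. Cd8a was detected in 1.12% of KO CD4, 2.35% of WT CD4, 81.4% of KO CD8 and 83.3% of WT CD8 cells. Il27ra itself was detected in 50.6% of KO CD4 and 50.6% of WT CD4 cells, and in 53.5% of KO CD8 and 51.1% of WT CD8 cells. Its single value sums every exon, so Il27ra does not check the genotype, and KO and WT are used below as the labels give them.

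Junb, the Jun family member with the highest level in every group, was found in nearly every cell. It was detected in 95.5% of KO CD4 cells (88.9% to 98.8%), 94.1% of WT CD4 cells (86.8% to 98.1%), 91.9% of KO CD8 cells (83.9% to 96.7%) and 93.3% of WT CD8 cells (86.1% to 97.5%). The median cell held 2590 FPKM of Junb among KO CD4 cells, 1712 among WT CD4, 1407 among KO CD8 and 1352 among WT CD8 cells. Single cells reached 10366, 10557, 8622 and 8048 FPKM in the same groups, and cells at 0 occurred in each. CD4 cells were thus somewhat higher than CD8 cells, with wide overlap between the groups.

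Jun and Jund, the other Jun proteins, were far less frequent. Jun was detected in 25.8% of KO CD4, 25.9% of WT CD4, 17.4% of KO CD8 and 21.1% of WT CD8 cells, at a median of 135.2 FPKM over the 79 cells that had it. Jund was detected in 15.7% of KO CD4, 18.8% of WT CD4, 16.3% of KO CD8 and 18.9% of WT CD8 cells. Of the 61 cells with Jund, 62.3% lay under 10 FPKM (1 fragment was worth an estimated 1.16 FPKM). Jun and Jund each overlap a transcript annotated on the opposite strand, and Junb overlaps the end of Prdx2. The Smart-seq2 cDNA is not described as strand-marked, so reads of such pairs cannot be told apart. Prdx2 averaged 71.6 to 168.4 FPKM per group, against 1624 to 2729 FPKM for Junb.

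Among the Fos family, Fos led and Fosb and Fosl2 followed at lower levels. Fos was detected in 66.3% of KO CD4 cells (55.5% to 76%), 56.5% of WT CD4 cells (45.3% to 67.2%), 46.5% of KO CD8 cells (35.7% to 57.6%) and 43.3% of WT CD8 cells (32.9% to 54.2%). The median cell held 400.3 FPKM among KO CD4 and 77.3 FPKM among WT CD4 cells, and 0 among both KO CD8 and WT CD8 cells. The highest cells had 8756, 5576, 3768 and 1690 FPKM in that order of groups. Where Fos was detected, its median was 894.5 FPKM in KO CD4, 633.6 in WT CD4, 578.1 in KO CD8 and 272.1 in WT CD8 cells. CD4 cells therefore had Fos more often and, when they had it, at a higher value.

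Fosb, a close relative of Fos, was detected in 31.5% of KO CD4, 27.1% of WT CD4, 16.3% of KO CD8 and 18.9% of WT CD8 cells, at medians of 18.8 to 27.6 FPKM where detected. Fosl2, which encodes Fra-2, was detected in 55.1% of KO CD4, 47.1% of WT CD4, 61.6% of KO CD8 and 54.4% of WT CD8 cells. Its level was lower in CD4 than in CD8 cells, by -0.45 in KO and -0.22 in WT cells. Neither difference reached 1 on the log2 scale, and without cells that had Foxp3 they were 0.02 and 0.22.

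Atf3, a stress-induced partner of the Jun proteins, was nearly absent. It was detected in 7 of 89 KO CD4 cells (7.87%, 3.22% to 15.5%), 2 of 85 WT CD4 cells, 1 of 86 KO CD8 cells and 1 of 90 WT CD8 cells. The cells that had it were high, at medians of 298.4 FPKM in KO CD4 and 298.8 FPKM in WT CD4 cells, with 1 KO CD4 cell at 2153 FPKM.

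Ier2, an immediate early gene whose product is a nuclear protein, separated the CD4 groups most. It was detected in 74.2% of KO CD4 cells (63.8% to 82.9%) and 45.9% of WT CD4 cells (35% to 57%), and in 66.3% of KO CD8 cells (55.3% to 76.1%) and 64.4% of WT CD8 cells (53.7% to 74.3%). The median cell held 207.1 FPKM among KO CD4, 0 among WT CD4, 222.5 among KO CD8 and 172.2 among WT CD8 cells. The KO CD4 share stood above the WT CD4 share, while the shares of the CD8 groups lay close together.

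Dusp1 was detected in 84.3% of KO CD4 cells (75% to 91.1%), 78.8% of WT CD4 cells (68.6% to 86.9%), 73.3% of KO CD8 cells (62.6% to 82.2%) and 71.1% of WT CD8 cells (60.6% to 80.2%). Its median over all cells was 1157 FPKM in KO CD4, 903.8 in WT CD4, 296.5 in KO CD8 and 220.8 in WT CD8 cells. Crem was detected in 57.3% of KO CD4 cells (46.4% to 67.7%), 47.1% of WT CD4 cells (36.1% to 58.2%), 26.7% of KO CD8 cells (17.8% to 37.4%) and 24.4% of WT CD8 cells (16% to 34.6%). The table sums the 39 annotated Crem transcripts, so its repressor and activator isoforms are not resolved. Both genes were higher in CD4 than in CD8 cells of either genotype, with the wider gap in shares for Crem.

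**Figure D1:**
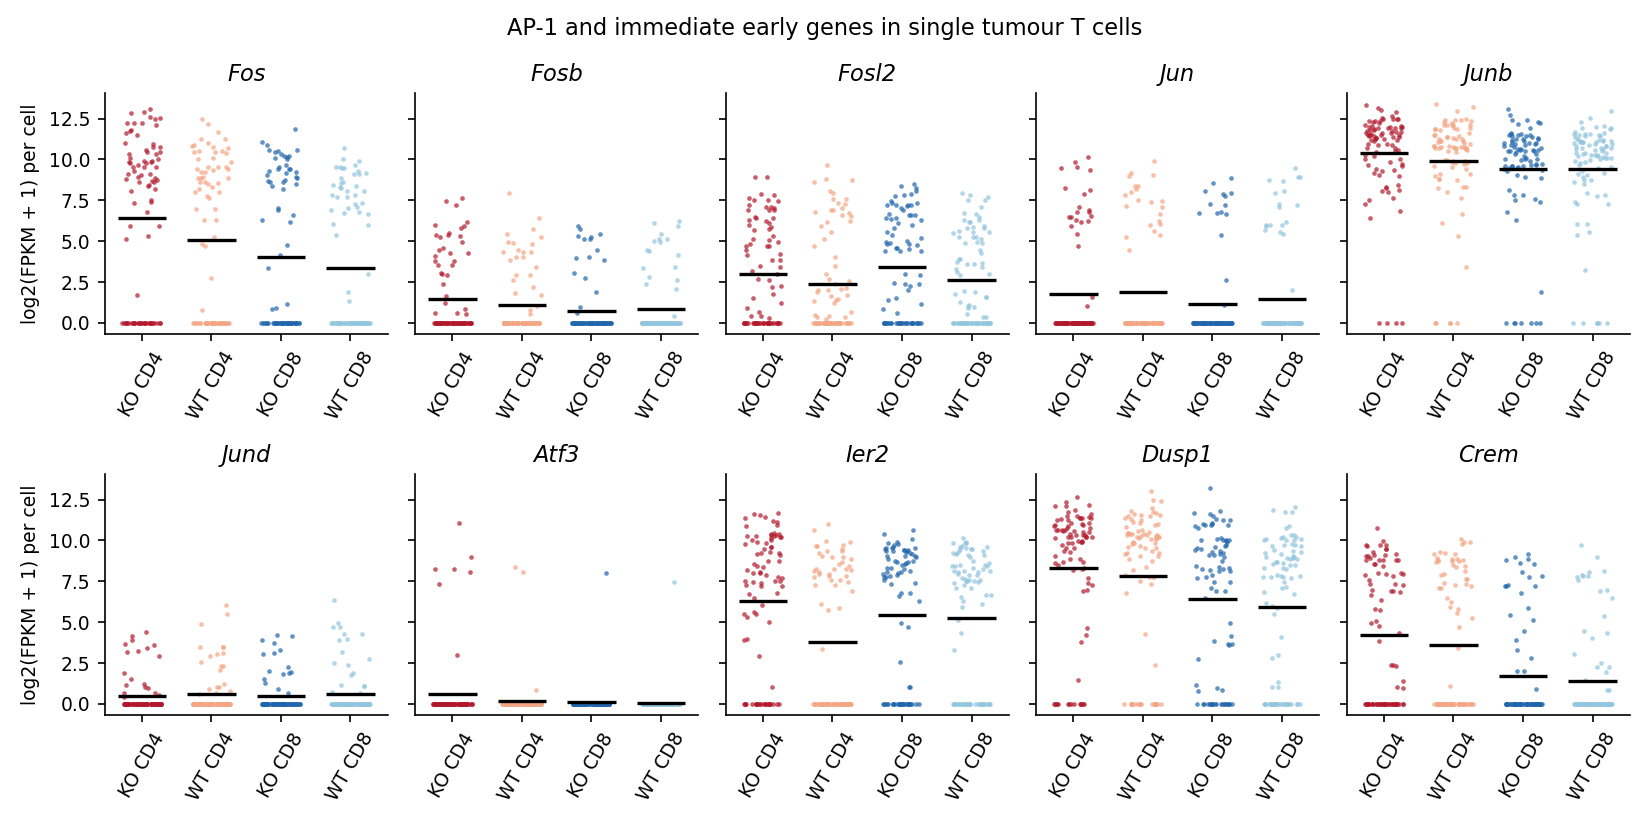
Each point is 1 cell, with log2(FPKM + 1) on the vertical axis and the group on the horizontal axis; black bars are means over cells. Junb lies high in nearly every cell, Fos, Ier2, Dusp1 and Crem split into cells at 0 and cells with high values, and Atf3 is seen in 7 KO CD4 cells and in 1 or 2 cells of each other group.

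The promoters of Fos, Dusp1 and Junb are shown because these genes were frequent and, for Fos and Dusp1, moved with the CD4 and CD8 sorts. RefSeq promoter sequence (GRCm38.p6, the assembly of mm10) was examined for 8 of the 10 members. Ier2 and Crem were not among them, so the motif counts below say nothing about these genes. The windows are the 250 bases before the RefSeq start, on the strand of the gene, at chr12:85473640-85473889 (plus strand) for Fos, chr17:26508473-26508722 (minus strand) for Dusp1 and chr8:84978749-84978998 (minus strand) for Junb. Capitals mark TGACG, read on either strand, the half-site of the cAMP response element (CRE) that CREB, ATF and CREM proteins are known to bind.
Fos: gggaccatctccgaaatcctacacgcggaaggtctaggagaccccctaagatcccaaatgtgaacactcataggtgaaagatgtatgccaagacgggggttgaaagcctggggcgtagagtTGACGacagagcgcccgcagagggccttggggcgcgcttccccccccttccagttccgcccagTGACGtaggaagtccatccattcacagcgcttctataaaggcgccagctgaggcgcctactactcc
Dusp1: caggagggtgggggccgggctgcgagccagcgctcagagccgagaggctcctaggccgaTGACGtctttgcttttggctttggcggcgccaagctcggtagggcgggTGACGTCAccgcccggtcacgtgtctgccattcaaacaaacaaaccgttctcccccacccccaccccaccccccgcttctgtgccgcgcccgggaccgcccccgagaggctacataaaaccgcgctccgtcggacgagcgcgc
Junb: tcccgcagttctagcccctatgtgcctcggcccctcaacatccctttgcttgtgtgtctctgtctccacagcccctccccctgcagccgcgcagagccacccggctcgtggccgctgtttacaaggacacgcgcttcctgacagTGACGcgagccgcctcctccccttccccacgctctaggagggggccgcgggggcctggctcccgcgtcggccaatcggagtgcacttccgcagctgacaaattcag

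TGACG was found in 5 of the 8 windows (Fos, Fosb, Junb, Atf3 and Dusp1), against 17.8% of 32851 promoter windows of this length. In Fos it begins at -129 and -66, counted back from the base before the RefSeq start as -1, and a TATAAA box begins at -33. Dusp1 holds 3 matches, of which those at -143 and -140 are the 2 strands of the full palindrome TGACGTCA, a sequence present in 1.55% of all windows. Junb has 1 match, at -106. The AP-1 site TGANTCA was in none of the 8 windows (6.75% of all windows), and the CArG box that SRF binds was in none either (1.47%). Sequence further upstream or past the start was not examined, so sites there would be missed for every member, Fos included. These matches describe letters in short windows: Fos and Dusp1, which were both higher in CD4 cells, and Junb, which differed less, all hold the half-site.

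The comparison of KO with WT asks which of these transcripts differ with the IL-27 receptor inside the tumour. In CD4 cells, Ier2 and Fos were higher in KO than in WT cells by more than 1 on the log2 scale, and no member was lower by as much. Ier2 had a level of 6.31 in KO CD4 and 3.80 in WT CD4 cells, a difference of 2.51 that ranked 5 among 3864 genes measured. Fos had a level of 6.39 in KO CD4 and 5.10 in WT CD4 cells, a difference of 1.29. A gene counts as measured where it was detected in 20% or more of the cells in KO or in WT, which 8 members passed in this comparison and Jund and Atf3 did not. Thus 2 of 8 were higher, against 9.91% of all genes higher and 0.983% lower. The 8 had a median difference of 0.54, against 0.23 over all genes, and genes as a whole were somewhat higher in KO CD4 cells.

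The other 6 measured members differed by less. Fosl2 differed by 0.59, Crem by 0.58, Dusp1 by 0.49 and Junb by 0.47. Fosb differed by 0.36, and Jun by -0.12. With cells weighted so that KO and WT have the same distribution of detected genes, Fos differed by 0.86, Dusp1 by -0.03 and Ier2 by 2.41, while 4.09% of all genes were higher and 2.38% lower. With a pseudocount of 10 in place of 1, Fos differed by 0.98; over the 13 alternatives tried, Ier2 differed by 1.48 to 3.44.

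In CD8 cells no member passed a difference of 1. Of the 10 members 7 were measured, with 0 of them higher and 0 lower, while 0.555% of 4686 genes were higher and 13.3% were lower. The median over all genes was -0.40, and the median of the 7 members was 0.31, with each of the 7 above the median of all genes. Fosl2 had the highest difference, with levels of 3.42 in KO CD8 and 2.60 in WT CD8 cells (0.82), followed by Fos (0.69) and Dusp1 (0.54). Fos ranked 86 here and stood 1.09 above the median of all genes, against 1.07 above it in CD4 cells. Measured from the background, its KO minus WT difference was thus no larger in CD4 than in CD8 cells. In cells with at least 2000 genes, Fos differed by -0.78. The KO CD8 cells had fewer genes detected, at a median of 1955 against 2148 in WT CD8 cells, and the part of this in the differences was not tested; after weighting to equal detected genes the median of all genes was -0.00, 2.41% of genes were higher and 1.9% lower, and Dusp1 differed by 1.04.

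Between the sorts, CD4 cells had higher Crem, Fos and Dusp1 than CD8 cells in both genotypes. In KO cells the differences were 2.49 for Crem, 2.36 for Fos and 1.86 for Dusp1. These are 3 of 8 measured members, against 8.24% of 3956 genes higher and 4.55% lower, and none of the 8 was lower by 1 or more. In WT cells they were 2.21 for Crem, 1.92 for Dusp1 and 1.75 for Fos, against 1.54% of 4729 genes higher. Ier2 went the other way in WT cells, with 3.80 in WT CD4 and 5.23 in WT CD8 cells (-1.43); 23.4% of genes were lower there. After weighting to equal detected genes 6.58% were higher and 5.35% lower, with Crem, Dusp1 and Fos still past 1 upwards and Ier2 downwards. Other settings took some of these under 1: Fos in WT cells differed by 0.63 among cells with at least 2000 genes and by 0.87 without cells that had 2 markers of another cell type at 1 FPKM, and Ier2 in WT cells by -0.83 with a pseudocount of 10, -0.26 with log2 of the mean FPKM and 0.02 without cells that had Foxp3. Dusp1 in KO cells differed by 0.84 without cells that had Foxp3 and by 0.77 with log2 of the mean FPKM. In KO cells Ier2 had 6.31 in CD4 and 5.43 in CD8 cells, a difference of 0.88. The comparisons share pools, so they are not independent of each other. Median differences of the 8 members were 0.93 in KO cells, against 0.03 over all genes, and 0.45 in WT cells, against -0.53 over all genes.

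**Figure D2:**
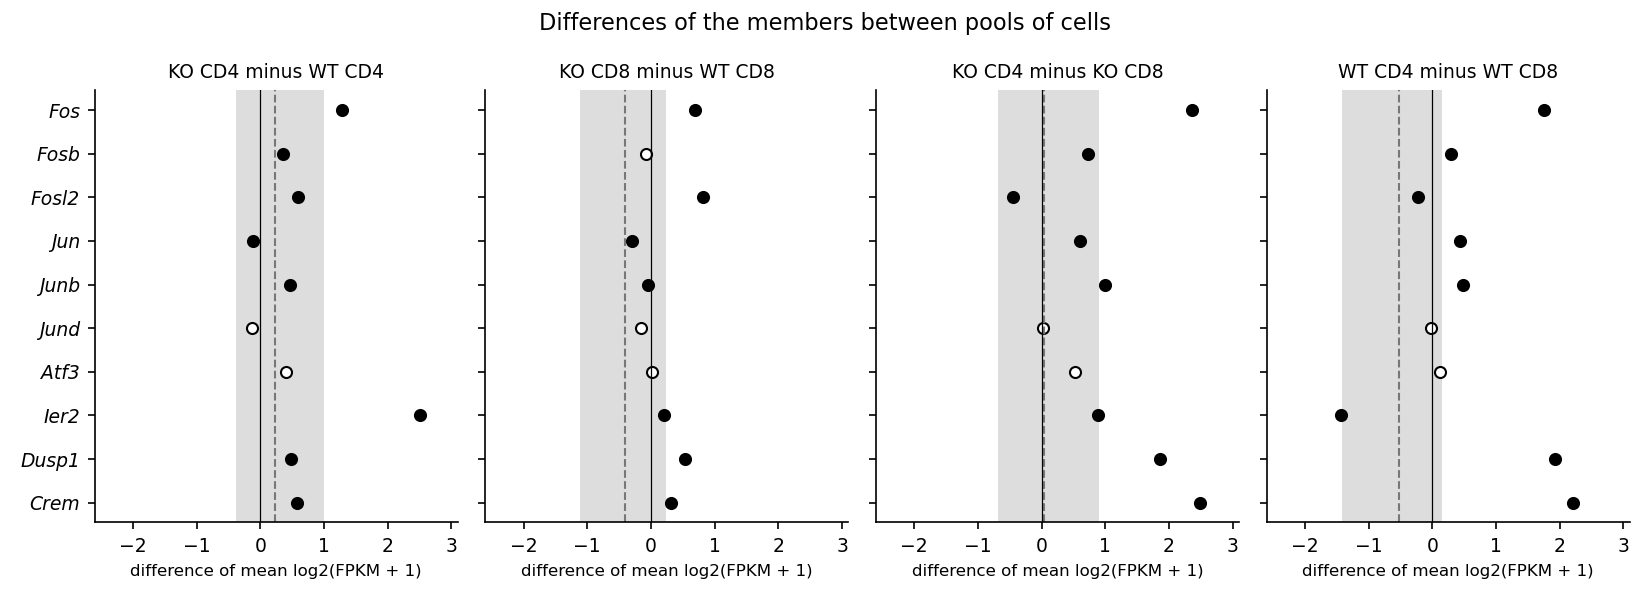
Difference of mean log2(FPKM + 1) for each member in 4 comparisons between pools. Filled points passed the gene filter and open points did not. The dashed line is the median over all measured genes and the grey band holds the middle 80% of them. Right of the band lie Ier2 and Fos in KO CD4 minus WT CD4, and Fosl2, Fos, Dusp1 and Crem in KO CD8 minus WT CD8. Fos, Junb, Dusp1 and Crem do so in both CD4 minus CD8 panels, and Fosb and Jun in that of WT cells. Ier2 lies left of the band in WT CD4 minus WT CD8 (-1.43).

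The order of the 4 groups by level was the same for Fos, Dusp1 and Crem: KO CD4, WT CD4, KO CD8 and WT CD8. Atf3 had this order too, but from 7, 2, 1 and 1 cells, with levels of 0.09 in KO CD8 and 0.08 in WT CD8 cells. For Fos the steps between neighbours were 1.29, 1.06 and 0.69, and for Crem 0.58, 1.90 and 0.31. The spread over cells was wide beside these steps, with an SD of 4.92 for Fos and 4.05 for Crem among KO CD4 cells, because many cells were at 0. Ier2 had the order KO CD4, KO CD8, WT CD8 and WT CD4, with WT CD4 lowest by a step of 1.43.

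CD4 cells of a tumour hold conventional helper cells and regulatory T cells, which are marked by the transcription factor Foxp3. Foxp3 was detected in 39.3% of KO CD4 cells (29.1% to 50.3%) and 54.1% of WT CD4 cells (43% to 65%), so the CD4 pools differ in this share, with intervals that overlap. Dusp1 and Crem were higher in cells with Foxp3. Dusp1 had a level of 10.14 in KO CD4 cells with Foxp3 and 7.12 without it (3.02), and 8.48 with and 7.03 without it in WT CD4 cells (1.45). Crem differed by 2.24 in KO and 1.53 in WT cells. Ier2 was lower in cells with Foxp3, by -1.45 in KO and -2.68 in WT cells.

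Fos and Junb were lower with Foxp3 in WT cells, and whether this differs from KO cells was not tested. Fos had 4.19 in WT cells with Foxp3 and 6.17 without (-1.98), and Junb had 8.92 with and 11.10 without (-2.18). In KO cells the differences were 0.41 for Fos and -0.19 for Junb. Cells with Foxp3 also had more genes detected, at medians of 2152 with and 1746 without Foxp3 in KO, and 1884 with and 1547 without in WT. Counting all genes, 30% were higher and 2.35% lower with Foxp3 in KO cells, and 23.9% higher and 4.81% lower in WT cells. Against this, 2 members were higher and 1 lower of 9 in KO, and 2 higher and 3 lower of 8 in WT cells; the higher ones are near the background, while the lower ones in WT, Fos, Junb and Ier2, stand beside a small share of lower genes.

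Within cells with Foxp3, KO minus WT was 2.86 for Ier2, 2.45 for Fos, 1.66 for Dusp1, 1.35 for Junb and 1.24 for Crem. Those 5 of 9 measured members compare with 21.5% of genes higher and 2.31% lower, and the median over all genes was 0.42. Without Foxp3, Ier2 differed by 1.63, and Fos by 0.06, Dusp1 by 0.09, Crem by 0.53 and Junb by -0.64. There 1 of 8 measured members was higher, against 13.5% of genes higher and 3.15% lower. Ier2 was higher in KO by more than 1 in both subsets, and Fos in the subset with Foxp3; whether the subsets differ was not tested. These subsets hold 35 and 46 cells with Foxp3 and 54 and 39 cells without it in KO and WT, from the same 2 pools.

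**Figure D3:**
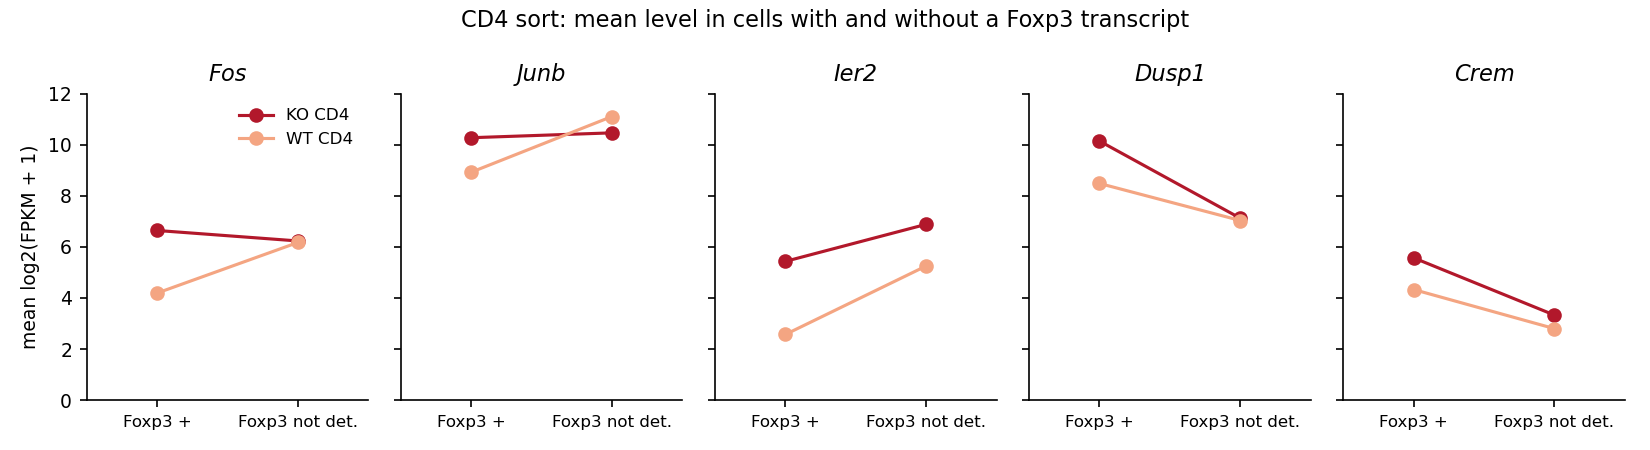
Mean log2(FPKM + 1) of 5 members in KO CD4 and WT CD4 cells, split by whether Foxp3 was detected. KO lies above WT for all 5 among cells with Foxp3; among cells without it the groups meet for Fos (6.23 in KO and 6.17 in WT) and Dusp1, and stay apart for Ier2.

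In the CD8 sort, cells were split by transcripts of the checkpoint receptors Pdcd1, Havcr2, Lag3 and Tigit, which mark chronically stimulated cells. At least 2 of the 4 were detected in 23 of 86 KO CD8 and 39 of 90 WT CD8 cells. Crem and Dusp1 were higher in these cells, Crem by 1.10 in KO and 1.90 in WT and Dusp1 by 0.83 in KO and 1.81 in WT, while Fos was lower, by -1.76 in KO and -0.91 in WT. In WT these cells had a median of 3024 genes detected, against 1993 in the others, and 42.6% of all genes were higher and 1.23% lower, so the higher Crem and Dusp1 there are near the background. In KO the medians were 1984 and 1950 genes, with 14.5% of genes higher and 6.2% lower. Fos and Jun (-1.18) were the members lower by 1 or more in KO, and Crem the one that was higher, of 8 measured.

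Cells with several members at once were most frequent among KO CD4 cells. At least 5 of the 10 members were detected in 68.5% of KO CD4 cells (57.8% to 78%), 50.6% of WT CD4 cells (39.5% to 61.6%), 39.5% of KO CD8 cells (29.2% to 50.7%) and 46.7% of WT CD8 cells (36.1% to 57.5%). With cells weighted to equal detected genes between KO and WT of the same sort, the shares were 65.1%, 54.1%, 38.5% and 40.2% in the same groups. This weighting did not match CD4 with CD8 cells. No cell had all 10, and 1 WT CD4 cell had 9. Cells with none numbered 1, 1, 2 and 2.

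**Figure D4:**
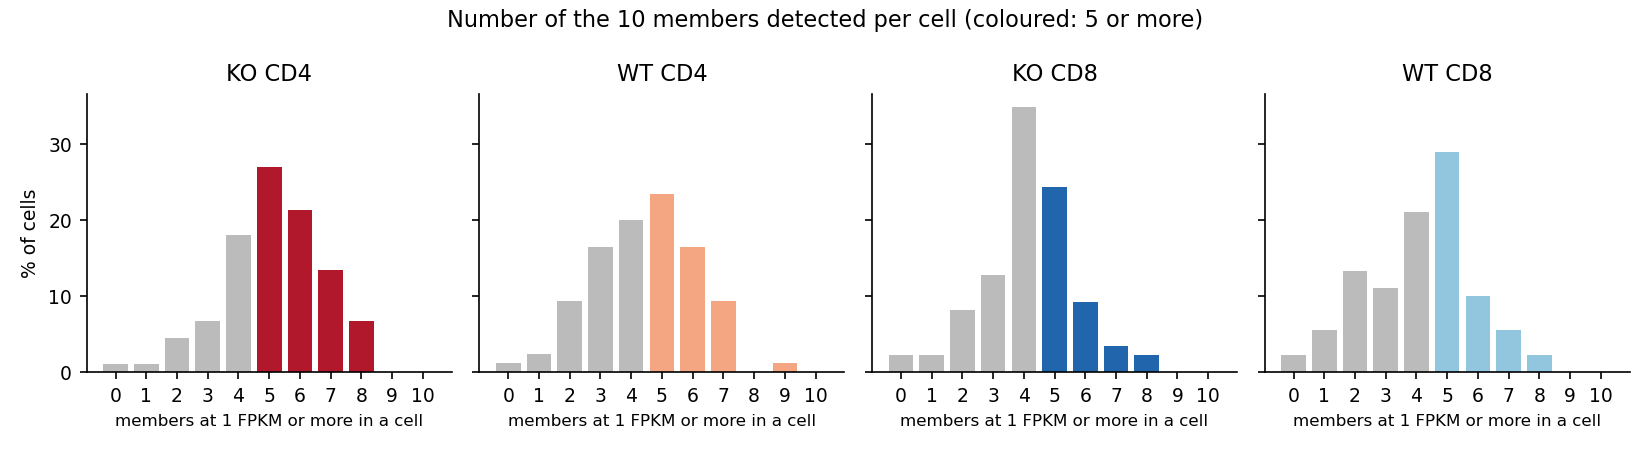
Share of cells by the number of the 10 members at 1 FPKM or more, for the 4 groups; coloured bars are cells with 5 or more. The KO CD4 distribution peaks at 5 and reaches 8, and the KO CD8 distribution peaks at 4.

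The members did not form 1 block across cells. Within each group, the correlation of log2(FPKM + 1) between 2 members was taken after both were regressed on the number of genes detected, and averaged over the 4 groups; cells of a pool share its processing, so these values are descriptions over 85 to 90 cells per group. Of 45 pairs, 3 had a mean of 0.2 or more: Junb with Ier2 (0.35, from 0.13 to 0.51), Fos with Fosb (0.30, from 0.18 to 0.40) and Junb with Dusp1 (0.20). The median pair had 0.05. Fos and Crem, both higher in CD4 cells, had -0.08 within groups. Fosb was detected in 40.7% of KO CD4 cells with Fos and 13.3% of those without it, in 33.3% and 18.9% of such WT CD4 cells, in 22.5% and 10.9% of KO CD8 cells and in 38.5% and 3.92% of WT CD8 cells.

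Genes most like the members were named by the same partial correlation with the members' mean z-score, over 2551 genes detected in at least 20% of the cells of every group. The first 10 were Nr4a1 (0.34), Btg2 (0.33), Cd69 (0.32), Zfp36 (0.31), Nfkbia (0.31), Eif1 (0.30), Tnfaip3 (0.30), Vps37b (0.29), Btg1 (0.28) and Ppp1r15a (0.28). Nr4a1 encodes a nuclear receptor induced by the T cell receptor, Cd69 an early activation antigen, Zfp36 an mRNA-destabilizing protein, and Nfkbia and Tnfaip3 inhibitors of NF-kappaB. The value for Nr4a1 was 0.47 in KO CD4, 0.32 in WT CD4, 0.24 in KO CD8 and 0.35 in WT CD8 cells. These are weak correlations of sparse values; the highest 1% of genes began at 0.22. Of the first 10, 8 stand in the list of other immediate early genes described next.

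Beside the members stand 3 lists of known programs: 34 other immediate early genes, 26 genes induced by the T cell receptor, and 20 heat shock and dissociation stress genes. The first and the second share 9 genes, among them Cd69, Nr4a1, Dusp2 and Egr1, and so are not separate readouts. In CD4 cells, 14 of 24 measured immediate early genes were higher in KO by 1 or more and 1 was lower, with a median of 1.41, against 9.91% of all genes higher, 0.983% lower and a median of 0.23. Cd69 led with 2.55 (66.3% of KO CD4 and 43.5% of WT CD4 cells), then Nfkbid, an NF-kappaB regulator (2.31), Rgs1 (2.31), Nr4a1 (2.26) and Dusp2, another MAP kinase phosphatase (2.18). Socs3, an inhibitor of cytokine signalling induced by STAT3, was the 1 that was lower, by -3.07 (29.2% of KO CD4 and 63.5% of WT CD4 cells).

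Of the T cell receptor list, 6 of 13 measured genes were higher and 1 lower in KO CD4 cells, with a median of 0.48; Icos (1.15) and Cd40lg (1.16) were higher beside the shared genes, and the checkpoint receptor gene Lag3 was lower (-1.37). Of the heat shock list, 1 of 11 was higher and none lower, with a median of 0.39; the 1 was the co-chaperone gene Dnaja1 (1.40). Hspa1a and Hspa1b, the most inducible Hsp70 genes, were detected in 3.37% and 2.25% of KO CD4 and in 5.88% and 2.35% of WT CD4 cells, too few to be measured. Weighted to equal detected genes, 13 of 24 immediate early genes, 4 of 13 T cell receptor genes and 0 of 11 heat shock genes were higher. The part of dissociation, receptor signalling or the pool's handling in the members' levels was not tested.

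In CD8 cells the same lists gave another picture. Over all genes, 0.555% were higher in KO and 13.3% lower, with a median of -0.40. Of 25 immediate early genes, 2 were higher in KO, Ppp1r15a (1.18) and Btg2 (1.09), and Nr4a2 was lower (-1.02), with a median of 0.00. Of 14 T cell receptor genes, 5 were lower and 0 higher (median -0.49), led by Tnfrsf9, which encodes 4-1BB (-1.96). Of 12 heat shock genes, 3 were lower, Hsp90aa1 (-2.32), Hspa5 (-1.42) and Hspe1 (-1.34), and 0 higher, with a median of -0.58. Weighting left 2 immediate early genes higher, 0 T cell receptor genes on either side, and 1 heat shock gene on each side, with 2.41% of all genes higher and 1.9% lower.

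**Figure D5:**
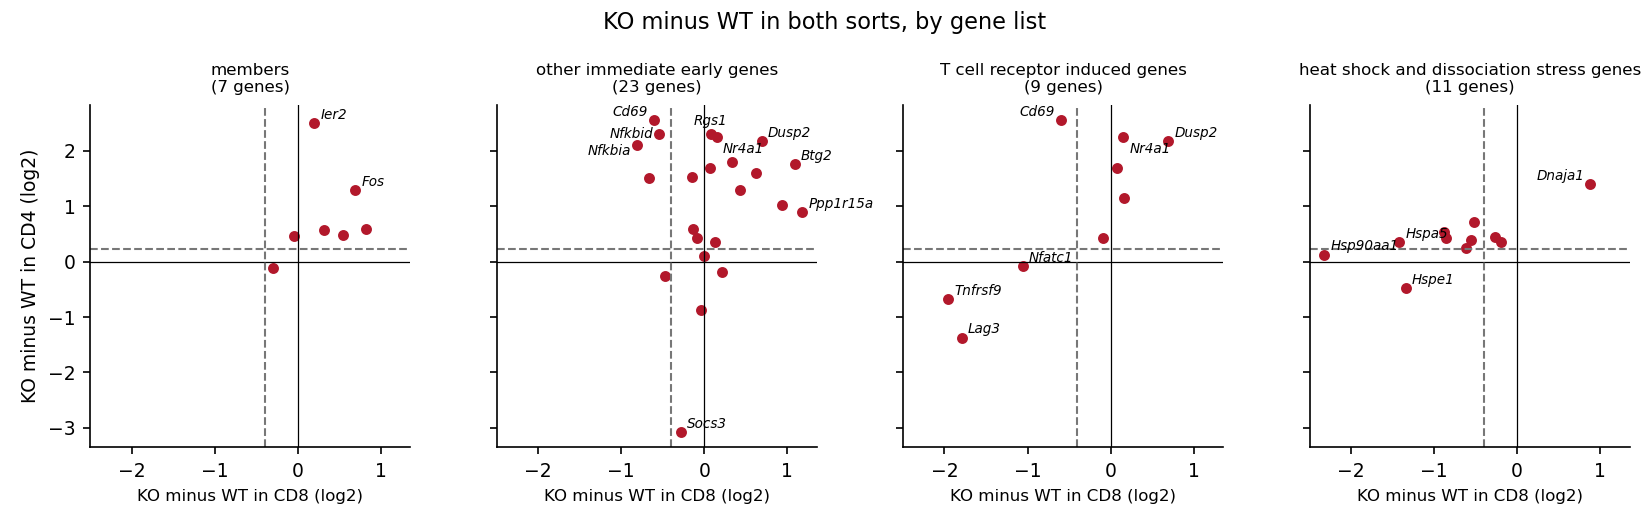
KO minus WT (log2) in CD8 cells on the horizontal axis and in CD4 cells on the vertical axis, for genes measured in both comparisons; dashed lines are the medians over all genes. The other immediate early genes spread upwards along the vertical axis to 2.55 (Cd69), with Socs3 at -3.07, while the heat shock genes run from -0.48 (Hspe1) to 1.40 (Dnaja1) in CD4 cells.

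Between the sorts in KO cells, 14 of 26 immediate early genes were higher and 2 lower in CD4 than in CD8 cells, and 8 of 15 T cell receptor genes were higher and 1 lower, with Tnfrsf4, which encodes OX40, at 4.82. Heat shock genes had 1 higher and 1 lower of 12. Over all genes, 8.24% were higher and 4.55% lower. In WT cells, 4 of 26 immediate early genes were higher and 4 lower. Of 16 T cell receptor genes, 4 were higher and 6 lower, with a median of -0.49 against -0.53 over all genes. Of 12 heat shock genes, 6 were lower and 0 higher, with a median of -1.11. Over all genes 1.54% were higher and 23.4% lower there, and after weighting to equal detected genes 2 of 12 heat shock genes were lower, against 5.35% of all genes.

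RNA of other cell types was low but present. The melanoma marker Tyr was detected in 95.3% or more of the cells of each group, at levels of 2.54 to 2.89. The neutrophil marker Cxcr2 was detected in 85.9% to 91.1%, at levels of 2.15 to 2.59. Leaving out cells with 2 markers at 1 FPKM kept 35 KO CD8, 32 WT CD8, 40 KO CD4 and 34 WT CD4 cells. At 10 FPKM, 2 or more melanoma markers occurred in 7 KO CD8, 6 WT CD8, 4 KO CD4 and 3 WT CD4 cells. Cells with 2 or more macrophage markers at 10 FPKM or more numbered 7 in KO CD4, 9 in WT CD4, 3 in KO CD8 and 7 in WT CD8 pools. The summed level of the 12 macrophage markers had a median of 70.7 FPKM in KO CD4, 12.9 in WT CD4, 1.46 in KO CD8 and 5.37 in WT CD8 cells, and the highest cells reached 14178, 6685, 2574 and 2878 FPKM. Ctss alone was detected in 51.7%, 48.2%, 40.7% and 43.3% of cells in the same order; without it, a split chosen after its values were seen, the median sum of the other 11 was 0 in every group, and none of them was detected in more than 13.3% of the cells of a group. Csf1r, C1qa, C1qb, C1qc and Fcgr3 were at 0 in KO CD8 cells. Without cells that carried 2 markers of another cell type at 10 FPKM (an alternative chosen after seeing the data), Ier2 and Fos remained the members past 1 in KO minus WT CD4, and Fos, Dusp1 and Crem remained past 1 in both CD4 minus CD8 comparisons. Ribosomal protein genes differed as well. In KO minus WT CD4 cells 8 of 16 were higher (median 1.01), against 9.91% of all genes. In WT CD4 minus WT CD8 cells 16 of 16 were lower (median -1.97), against 23.4% of all genes. In KO CD4 minus KO CD8 cells 3 of 16 were lower and 0 higher (median -0.74), against 4.55% of all genes lower. Both CD4 minus CD8 medians thus ran opposite to Fos, Dusp1 and Crem. The part of the ribosomal genes in the members' differences was not tested.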

How the data were processed

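Single T cells were read by Smart-seq2 with 21 cycles of cDNA amplification, per the labels' protocols. The authors deposited 1 table of gene-level FPKM normalized by TMM, made with Bowtie and RSEM on mm10 per the submitters' processing notes; their versions are not given in the sources used here. It has 23366 genes and 375 columns, 371 of them single cells. The other 4 columns were not used, and 4 entries with repeated symbols were left out. No cells had identical values. FPKM carry no read counts, so no count test was made. Depth was estimated from the most common low value per cell over 2876 genes with 1 transcript, taken as 1 fragment.

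Levels are means over cells of log2(FPKM + 1), with a gene filter of 20% of cells in either group, a threshold of 1 on the log2 scale, and exact Clopper-Pearson 95% intervals. A share of 0 carries the limit that 3 counts allow. Each group is 1 pool, so no p-value, SE or set test was computed from cells. Weighting gave both groups of a comparison the same distribution over bins of detected genes. Named genes were the 10 members, the highest and lowest of each list, and the 10 genes with the highest mean partial correlation; Hspa1a, Hspa1b and some other list genes were named after their values were seen. Further lists (other bZIP factors, MAP kinase cascade, MAP kinase phosphatases, cAMP pathway) are given among the other observations. The members and lists were chosen with earlier results of these data known. Gene models came from GENCODE M21 and promoters from RefSeq (GRCm38.p6). Of the 13 alternatives, 12 were planned. Tools were Python 3.11.15, numpy 2.4.6, pandas 2.3.3, scipy 1.17.1 and matplotlib 3.10.9, and the scripts were tested on simulated data with known shifts.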

Additional observations from a re-analysis of the deposited data

Results flagged for a closer look

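Ier2 differed between CD4 and CD8 cells in opposite directions in the 2 genotypes: KO CD4 minus KO CD8 was 0.88, and WT CD4 minus WT CD8 was -1.43 on the log2 scale. The values behind these are 6.31 in KO CD4 and 5.43 in KO CD8 cells, and 3.80 in WT CD4 and 5.23 in WT CD8 cells. These are means over the cells of 1 pool per group, single cells of all 4 groups overlap widely, and the difference between the genotypes was not tested. Without cells that had Foxp3, the difference in WT cells was 0.02 and that in KO cells 1.39.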

How the results depend on the processing

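No paired analysis was possible because the groups share fewer than 2 numbers: the titles give the number 3 in all 4 groups, and each group is 1 pool. Of 520 differences of single members under 13 alternatives, 445 kept their sign and side of the threshold, 33 changed sign while under it both times, 32 passed it only under the alternative, 9 no longer passed it, and Ier2 in WT CD4 minus WT CD8, -1.43, became 0.02 without cells with Foxp3. Dropping the gene filter and setting detection at 10 FPKM change no level. Differences under these settings equal the main ones by construction, and they are counted among the 445. The sign changes include Fos in KO minus WT CD8 (0.69, and -0.78 with at least 2000 genes), Junb in KO minus WT CD4 (0.47, and -0.63 without cells with Foxp3) and Fosl2 in WT CD4 minus WT CD8 (-0.22, and 0.84 with log2 of the mean). In KO minus WT CD8 cells, the count of members past the threshold, 0, became 1 with a pseudocount of 0.1, rescaled cells or markers at 10 FPKM (Fosl2), with weighting (Dusp1) and with log2 of the mean (Fos), and 2 without cells with 2 markers at 1 FPKM (Fosl2, Crem), which left 32 to 40 cells per group. Over all genes, 0.651% to 2.63% were higher under these settings, against 0.555% in the main one. In KO minus WT CD4 cells, the count of 2 became 1 with a pseudocount of 10, weighting or without Foxp3 cells (Ier2), and 4 in cells with at least 2000 genes (Fos, Junb, Ier2, Crem). All genes higher made up 2.1%, 4.09%, 13.5% and 8.06% under these settings in turn, against 9.91% in the main one. In KO CD4 minus KO CD8 cells, the count of 3 became 6 with a pseudocount of 0.1, 7 with at least 2000 genes and 5 without cells with markers at 10 FPKM, an alternative chosen after seeing the data. The background moved too: 15.3%, 21.9% and 8.97% of all genes were higher there, against 8.24% in the main setting. Shares of cells with 5 members were 81.1% in KO CD4 and 64% in WT CD4 cells with at least 2000 genes. With detection at 10 FPKM they were 57.3%, 34.1%, 25.6% and 27.8% in KO CD4, WT CD4, KO CD8 and WT CD8 cells. The cause was not tested. Depth limits Jund, with 62.3% of its detected values under 10 FPKM.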

Other observations

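Other bZIP factors and the cascades around AP-1 were counted in the same way. Of 25 other AP-1 and bZIP factor genes, 8 were measured in KO minus WT CD4 cells. Of these 8, 0 passed the threshold on either side, and the median was 0.11. Over all genes 9.91% were higher and 0.983% lower there, with a median of 0.23. In KO minus WT CD8 cells 10 were measured, again with 0 past the threshold and a median of -0.41. Over all genes 0.555% were higher and 13.3% lower there, with a median of -0.40. These counts and medians are near the background. Between the sorts, Maf, a bZIP factor of helper and regulatory T cells, was higher in CD4 than in CD8 cells, by 1.57 in KO and 1.77 in WT cells, and Atf4, a stress response factor, was lower in WT CD4 than in WT CD8 cells (-1.17).

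The MAP kinase cascade upstream of AP-1 had 0 of 10 measured genes past the threshold in KO minus WT CD4 cells. Their median was 0.10, against 0.23 over all genes, of which 9.91% were higher and 0.983% lower. In KO minus WT CD8 cells, 1 of 12 was past the threshold, Map2k1, which encodes MEK1 (-1.44). There 13.3% of all genes were lower and 0.555% higher, so both counts are near the background. MAP kinase phosphatases other than Dusp1 had 3 of 4 measured genes higher in KO than in WT CD4 cells: Dusp2 (2.18), Dusp5 (1.45) and Dusp10 (1.29), while Dusp4 differed by -0.03. Dusp5 was detected in 60.7% of KO CD4 and 36.5% of WT CD4 cells, and Dusp10 in 47.2% of KO CD4 and 24.7% of WT CD4 cells. The background in that comparison was 9.91% of genes higher.

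Genes of the cAMP pathway, through which Crem is known to be induced, had 1 of 11 measured genes higher in KO than in WT CD4 cells. It was the phosphodiesterase gene Pde4b (1.07). The median was 0.09, against 0.23 over all genes, of which 9.91% were higher. In CD4 against CD8 cells, where Crem was higher, 0 of 12 were higher and 2 lower in KO, against 8.24% and 4.55% of all genes. In WT cells 0 of 15 were higher and 1 lower, against 1.54% and 23.4% of all genes. The counts of higher genes are near the background. Prkacb, a catalytic subunit of protein kinase A, was lower in CD4 cells, by -1.54 in KO and -1.57 in WT. The other lower gene in KO was Pde3b (-1.28). The part of this pathway in the Crem levels was not tested.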
